A study of Mus musculus with 4 samples.

Results

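The 10 genes described here set whether a leukocyte lives or dies and whether it grows. The BCL2 family genes Bcl2, Mcl1, Bcl2l1, Bcl2a1b and Bcl2a1d block cell death, and Bax and Bcl2l11 drive it. The others are the kinase genes Pim1 and Pim2 and Myc, which encodes a transcription factor of growth. They are 10 of the 31053 genes measured and were matched by symbol, and all 10 were found. The 10 were chosen by earlier results of these data, namely their CPM per mouse and cell class in DOCA-salt against sham hearts, so the differences between those groups are given below as a description, and no member is tested for them, within a class or between classes. The study profiled CD45+ leukocytes of the left ventricle of C57Bl6J mice, 4 given DOCA-salt (deoxycorticosterone acetate and salt, a regimen that raises blood pressure) and 4 sham-treated. The labels name no other allele or agent, and no age. The cells of each group were pooled after staining with hashtag antibodies that mark the mouse, and were sequenced as 1 library by a 5' single-cell kit that counts unique molecules (UMIs). Group and library therefore cannot be told apart.

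BCL2, MCL1, BCL-xL (from Bcl2l1) and A1 (from the Bcl2a1 genes) sit on mitochondria and hold back BAX and BAK, which would otherwise open the outer membrane and set off the caspases. BIM, from Bcl2l11, is a BH3-only protein that binds the protective members and frees BAX. Resting T and B cells depend on cytokines such as IL-7 and BAFF that keep BCL2 high. PIM1 and PIM2 are serine/threonine kinases with little control beyond their own abundance, are induced through JAK and STAT factors, and favour survival and protein synthesis. MYC is a transcription factor that drives ribosome building and metabolism and binds DNA together with MAX.

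The promoters of Bcl2, Pim1 and Pim2 are shown because these genes averaged higher in CD4 T-like and naive-like CD8 T cells of DOCA-salt hearts, and a stretch before Bax because it holds a motif. The sequences come from the RefSeq promoter table for GRCm38.p6, 5' to 3' on the gene's own strand, without bases of annotated exons. Bcl2 has the 250 bases at chr1:106714291-106714540 (minus strand), Pim1 the 202 bases at chr17:29492835-29493036 (plus strand, before a second start inside the gene), Pim2 the 206 bases at chrX:7878056-7878261 (plus strand) and Bax the 60 bases at chr7:45466899-45466958 (minus strand). Capitals mark CACGTG, the E-box that MYC and MAX, among other factors, can bind.
Bcl2: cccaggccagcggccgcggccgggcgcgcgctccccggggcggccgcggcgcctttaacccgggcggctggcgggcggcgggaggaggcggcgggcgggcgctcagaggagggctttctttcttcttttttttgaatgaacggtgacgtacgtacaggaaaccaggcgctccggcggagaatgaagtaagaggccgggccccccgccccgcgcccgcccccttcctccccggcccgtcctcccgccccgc
Pim1, second start: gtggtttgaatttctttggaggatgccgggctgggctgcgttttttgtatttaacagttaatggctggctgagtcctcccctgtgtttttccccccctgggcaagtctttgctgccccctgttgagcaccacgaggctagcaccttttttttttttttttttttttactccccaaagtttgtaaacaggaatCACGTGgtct
Pim2: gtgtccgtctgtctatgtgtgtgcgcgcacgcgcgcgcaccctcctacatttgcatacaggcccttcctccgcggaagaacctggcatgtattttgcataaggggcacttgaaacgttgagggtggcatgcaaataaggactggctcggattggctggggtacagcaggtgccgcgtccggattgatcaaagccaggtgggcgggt
Bax: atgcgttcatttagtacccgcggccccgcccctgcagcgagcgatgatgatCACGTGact
CACGTG lay 58 bases before the second Pim1 start and 9 bases before the Bax start, in 2 of the 13 windows of 250 bases that the table gives for members, and in 6.02% of all 32851 windows. The STAT motif TTCNNNGAA was in 0 of the 13 and in 7.02% of all. Both motifs read the same on the 2 strands, so 1 search covers both. 9 of the 10 members had an entry. The window at the first Pim1 start, not shown, held neither motif. G and C made up 82.4% of that Pim1 window and 74.8% of the Bcl2 window, against a median of 52.4% over all windows.

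Bcl2a1b and Bcl2a1d are 2 of a group of near-identical copies on mouse chromosome 9, and the start of their coding sequence is shown because it limits what their counts mean. The first 60 coding bases are taken from GENCODE M21 transcripts, and capitals mark the positions at which Bcl2a1a, Bcl2a1b and Bcl2a1d differ.
Bcl2a1a: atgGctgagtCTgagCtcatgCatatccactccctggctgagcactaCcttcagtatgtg
Bcl2a1b: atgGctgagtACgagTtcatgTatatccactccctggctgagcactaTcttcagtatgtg
Bcl2a1d: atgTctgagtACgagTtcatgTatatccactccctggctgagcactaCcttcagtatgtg
Over the full 516 coding bases Bcl2a1b and Bcl2a1d differ at 6 positions and are 98.8% identical. Of all stretches of 90 bases, 36.1% of those in the Bcl2a1b transcript and 61.6% of those in the Bcl2a1d transcript occur in another copy, so reads can be lost or split between them and the counts of both genes are uncertain. By contrast the antisense genes that overlap members held few UMIs, 10 for Gm26885 against 7324 for Pim1, 46 for D630008O14Rik against 6827 for Bcl2, and 17 for Gm10634 against 1047 for Bcl2a1d.

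The DOCA-salt library gave 6864 cells with an assigned mouse and the sham library 4080, with 764 to 2172 cells per DOCA-salt mouse and 624 to 1281 per sham mouse. UMIs per mouse ran from 2708758 to 9048096 in DOCA-salt mice and from 1782050 to 4065978 in sham mice. Both libraries together hold 41 barcodes in common, 36 of them among the cells used. Cells were clustered without the 10 members, and clusters were named X-like from marker genes. Clusters left without a name enter no class. Among them were 691 cells closest to the B list and 670 cells led by Cbr2 and Folr2 and closest to the macrophage list. T sub-clusters of 120, 65, 64, 35 and 9 cells were also unnamed. The macrophage-like class is therefore 1 cluster of 825 cells, and no class covers all cells of its kind. The T cell names were set against surface antibodies. The median CD4 antibody count was 2506.5 in DOCA-salt and 2531.5 in sham CD4 T-like cells, and the median CD8a antibody count was 2310.5 and 2203.0 in naive-like CD8 T cells of DOCA-salt and sham hearts. In memory-like CD8 T cells it was 1240.0 in DOCA-salt but 356.5 in sham hearts, and 7 B cell markers summed to 42.8 to 83.0 CPM in the DOCA-salt mice and to 63.9 to 947 CPM in the sham mice of that class. The part of the B cell RNA in the results on that class was not tested. CD44, a surface mark of memory, stood at a median of 335.0 in naive-like and 2070.5 in memory-like CD8 T cells of DOCA-salt hearts and at 443.0 and 1874.5 in those of sham hearts. Levels are counts per total UMIs of a mouse and class, scaled to CPM, with no correction for length, and are compared between classes or mice and never between genes.

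Leukocyte classes differed in which protective gene they carried. Bcl2 was at its highest level in memory-like CD8 T cells (550 ± 19.7 CPM, SD, n = 4 mice with at least 10 cells, 3 of them DOCA-salt), CD4 T-like cells (440 ± 88.8, n = 8) and naive-like CD8 T cells (438 ± 134, n = 8). Its level was 395 ± 17.3 CPM in ILC2-like cells (n = 3, all DOCA-salt), which are innate lymphocytes of tissues, and 295 ± 42.3 in NK-like cells (n = 8). It was lower in gamma-delta T-like cells, at 169 ± 74.0 CPM (n = 3, all DOCA-salt), whose range overlapped that of B-like cells. B-like cells were at 118 ± 10.3 CPM and macrophage-like cells at 41.9 ± 13.5 CPM (SD, n = 8 each). The lymphocyte classes above 290 CPM and the myeloid classes below 90 CPM did not overlap, whereas the 3 T cell classes did, as the map of levels by class shows. The first rank of memory-like cells rests on that mix of groups: over all 4 DOCA-salt mice Bcl2 averaged 510 ± 98.0 CPM in memory-like and 554 ± 68.2 CPM in naive-like CD8 T cells. Classical monocyte-like cells were at the bottom, with 9.07 ± 6.16 CPM (n = 5).

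**Figure D1:**
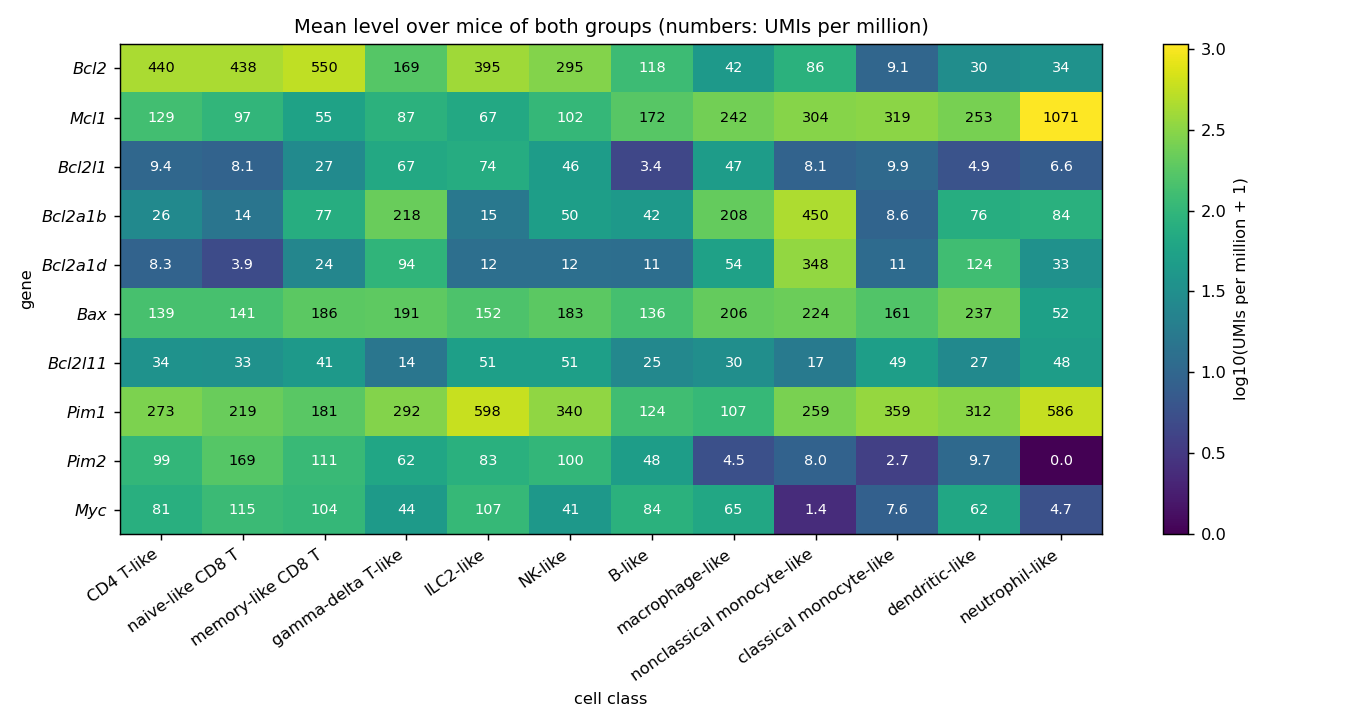
Mean level of each of the 10 genes (rows) in 12 cell classes (columns), averaged over all mice of both groups with at least 10 cells of the class. In ILC2-like, gamma-delta T-like and neutrophil-like cells only DOCA-salt mice had that many. Numbers are CPM and the colour is their log10 after adding 1. Bcl2 is high in CD4 T-like, CD8 T, NK-like and ILC2-like cells and lower in gamma-delta T-like cells (169). Mcl1 peaks at 1071 in neutrophil-like cells, and the Bcl2a1 genes peak in nonclassical monocyte-like cells.

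Mcl1, which encodes a short-lived protective protein that neutrophils depend on, ran the other way. It reached 1071 ± 108 CPM in neutrophil-like cells of DOCA-salt hearts (SD, n = 4), where sham hearts had too few cells for a level, and the lowest of these mice stood above the highest mouse of any other class. The monocyte-like, dendritic-like and macrophage-like classes followed with means of 242 to 319 CPM and overlapping ranges. Memory-like CD8 T cells were the lowest of the 12 classes, at 54.8 ± 19.2 CPM (SD, n = 4), and their range overlapped that of ILC2-like cells. These 4 mice were again 3 DOCA-salt and 1 sham: over all mice of a group Mcl1 averaged 57.3 ± 15.7 CPM in DOCA-salt and 96.0 ± 52.4 CPM in sham memory-like CD8 T cells, and in sham mice naive-like CD8 T cells had 91.6 ± 19.5 CPM. Bcl2a1b and Bcl2a1d were highest in nonclassical monocyte-like cells, at 450 ± 132 and 348 ± 105 CPM, and near 10 CPM in classical monocyte-like cells (8.58 ± 15.1 and 10.6 ± 9.44 CPM, n = 5). Bcl2l1 was highest in ILC2-like cells (74.5 ± 30.6 CPM) and gamma-delta T-like cells (67.1 ± 23.0 CPM, SD, n = 3 each). All mice behind these 2 levels were DOCA-salt, because no sham mouse had 10 cells of either class. Bcl2l1 was at 46.7 ± 12.1 CPM in macrophage-like cells, 46.1 ± 12.5 in NK-like cells and 3.36 ± 2.25 in B-like cells (SD, n = 8 each).

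The death-promoting pair varied less. Bax averaged 136 to 237 CPM in 11 classes, with each class overlapping the next, and 51.8 ± 39.3 CPM in neutrophil-like cells (SD, n = 4). Bcl2l11 stayed between 14.4 and 50.7 CPM in all 12, and neighbours in the order overlapped throughout. Pim1 was found everywhere, with its lowest mean in macrophage-like cells (107 ± 46.8 CPM, n = 8). Its highest means were 586 ± 72.7 CPM in neutrophil-like cells (n = 4) and 598 ± 337 in ILC2-like cells (n = 3), both from DOCA-salt mice alone. Pim2 was a lymphocyte gene here: it averaged 47.9 to 169 CPM in the 7 lymphoid classes and at most 9.71 CPM in the 5 myeloid ones, and no UMI was found among the 321946 of neutrophil-like cells of DOCA-salt hearts, which allows up to 9.32 CPM. Myc averaged 81.3 to 115 CPM in the 3 T cell classes and 84.3 ± 32.3 CPM in B-like cells, but 1.44 ± 2.67 CPM in nonclassical monocyte-like cells (SD, n = 8).

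Among 5320 other genes with at least 50 CPM in a class, those whose class means most resembled a member's were H2-Q7 for Bcl2 (Pearson r = 0.959 over 12 classes), Csrp1 for Myc (0.964), Rasal3 for Pim2 (0.958), Kpnb1 for Bax (0.967) and Kdm7a for Mcl1 (0.945). Bcl2a1d was most like Bcl2a1a (0.897), which shares sequence with it. The closest gene to Pim1 was Adipor2, at 0.840, and to Bcl2l11 Prpf18, at 0.804. The 12 points share 2 libraries and differ in depth, and these are descriptions.

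The first comparison asks how the genes differed in T cells of DOCA-salt hearts. In naive-like CD8 T cells Bcl2 measured 474, 556, 545 and 641 CPM in DOCA-salt mice 1 to 4, against 276, 315, 348 and 351 CPM in sham mice 1 to 4. Every DOCA-salt mouse was above every sham mouse. The log2 change was 0.83 (SE 0.14), a 1.78-fold higher level. Myc was likewise apart, with 153, 135, 159 and 134 CPM in DOCA-salt mice against 69.0, 111, 102 and 52.4 CPM in sham mice, a log2 change of 0.95 (SE 0.25).

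Pim2 in the same cells measured 217, 157, 291 and 226 CPM in DOCA-salt mice and 94.9, 93.5, 184 and 89.2 CPM in sham mice. The log2 change was 1.15 (SE 0.24), and 1 sham mouse, number 3, lay inside the DOCA-salt range. Pim1 measured 234, 251, 294 and 243 CPM in DOCA-salt mice and 104, 119, 369 and 136 CPM in sham mice, with a log2 change of 0.81 (SE 0.21). Sham mouse 3 was again the exception and was the highest of all 8. That mouse contributed 11 naive-like CD8 T cells, against 21 to 39 in the other sham mice and 55 to 87 in DOCA-salt mice, and without it the log2 changes of Pim1 and Pim2 were 1.10 and 1.30.

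Bax and Mcl1 overlapped between the groups in naive-like CD8 T cells. Bax averaged 148 ± 14.8 CPM in DOCA-salt and 133 ± 15.1 CPM in sham mice, and Mcl1 averaged 103 ± 30.8 and 91.6 ± 19.5 CPM in DOCA-salt and sham mice (SD, n = 4 each). Bcl2l1, Bcl2l11, Bcl2a1b and Bcl2a1d had too few UMIs to pass the filter on low counts. Over all 2957 genes that passed it, 0.778% were called at an adjusted p under 0.05 (edgeR quasi-likelihood test with Benjamini-Hochberg adjustment), 6 higher and 17 lower in DOCA-salt mice, and 2.6% had every DOCA-salt mouse above every sham mouse. Bcl2 and Myc were among those without overlap, from which nothing is read, since this contrast chose the members.

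**Figure D2:**
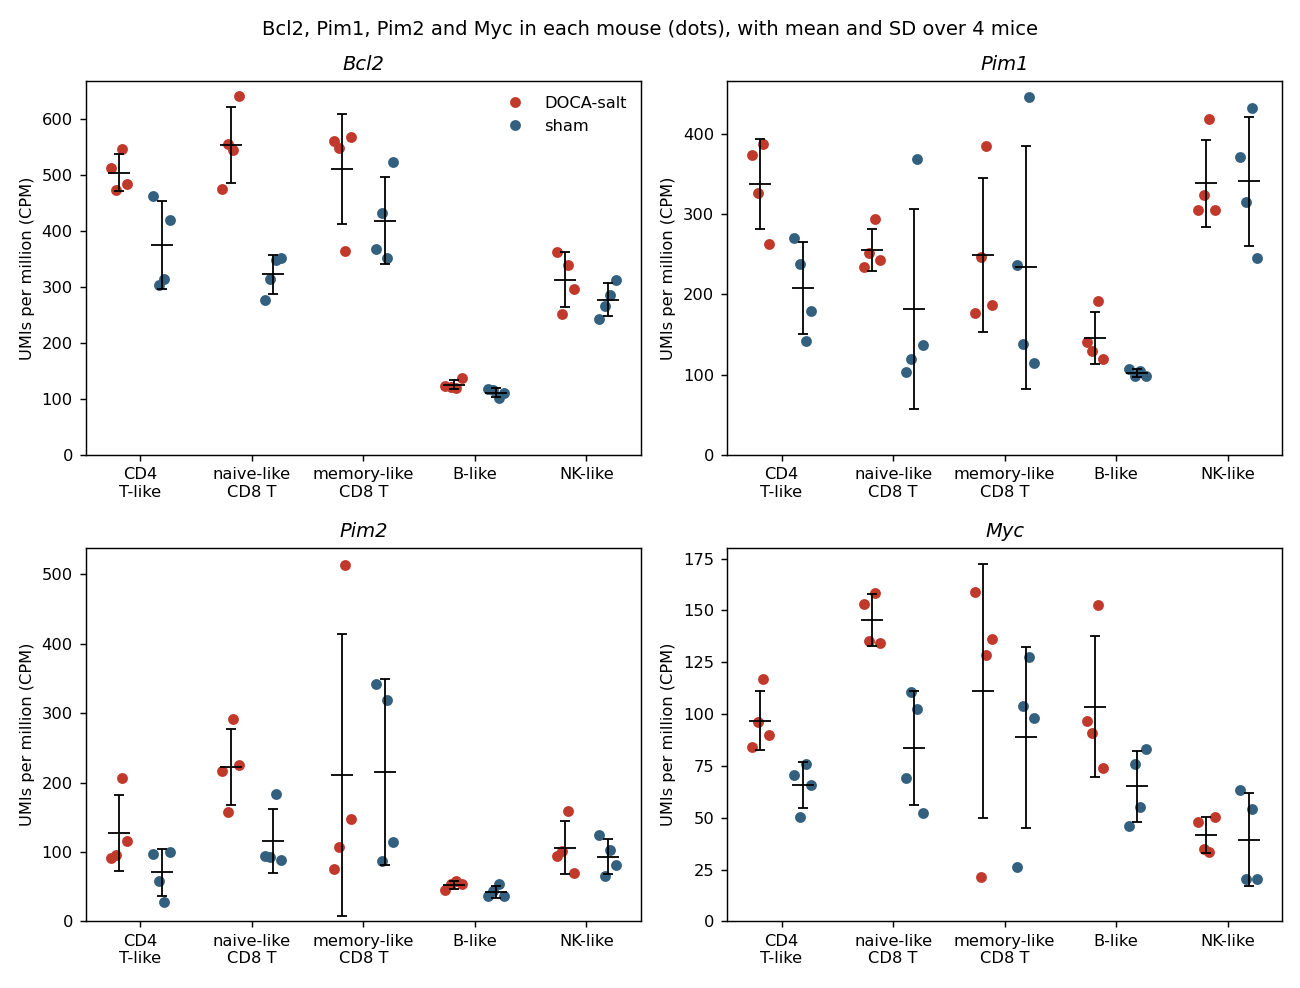
CPM of Bcl2, Pim1, Pim2 and Myc (4 panels) in each of 4 DOCA-salt mice (red, left) and 4 sham mice (blue, right) in 5 lymphocyte classes; dots are mice, dashes are means and bars are SDs. In naive-like CD8 T cells all DOCA-salt mice lie above all sham mice for Bcl2 and Myc, and sham mouse 3 is the high blue dot for Pim1 (369) and Pim2 (184).

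With classes taken from the clusters, CD4 T-like cells showed smaller log2 changes in the same genes. Bcl2 measured 512, 473, 546 and 484 CPM in DOCA-salt mice, against 463, 303, 314 and 420 CPM in sham mice, without overlap. The log2 change was 0.43 (SE 0.14). Pim1 measured 374, 327, 388 and 263 CPM in DOCA-salt mice and 270, 238, 143 and 179 CPM in sham mice, where the lowest DOCA-salt mouse lay just under the highest sham mouse, and the log2 change was 0.71 (SE 0.17). Myc measured 84.3, 96.4, 117 and 89.7 CPM in DOCA-salt mice and 70.7, 50.6, 76.0 and 65.6 CPM in sham mice, also without overlap, with a log2 change of 0.56 (SE 0.24). The smaller changes depended on how the classes were drawn. With T classes gated by UMIs, Bcl2 changed by 0.81 in CD4 T and 0.79 in naive-like CD8 T cells, and Pim2 by 1.14 and 1.18. Pim1, at 0.62 and 0.81, and Myc, at 0.48 and 0.91, stayed smaller in CD4 T cells.

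Pim2 overlapped in CD4 T-like cells, with 90.7, 96.4, 207 and 116 CPM in DOCA-salt mice against 96.5, 57.8, 28.5 and 101 CPM in sham mice. Its log2 change of 0.69 (SE 0.31) was 0.40 without DOCA-salt mouse 3, the highest, and 0.50 without sham mouse 3, the lowest. Mcl1 leaned the other way, with a mean of 110 ± 17.1 CPM in DOCA-salt and 148 ± 42.2 CPM in sham mice and a log2 change of -0.38 (SE 0.21), and the groups overlapped. Bax was at 143 ± 18.3 and 135 ± 21.4 CPM in DOCA-salt and sham mice (SD, n = 4 each). Bcl2a1d did not pass the filter: its 31 UMIs all came from DOCA-salt mice, and 0 of 627909 UMIs in sham CD4 T-like cells allow up to 4.78 CPM over that group. Of the 31, 26 lay in a sub-cluster with 61 DOCA-salt and 8 sham cells, described next. Over all 3019 genes tested, 1.13% were called, 11 higher and 23 lower, and 2.42% had every DOCA-salt mouse above every sham mouse. Bcl2 and Myc were among the genes without overlap, and again nothing is read from that.

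With cells summed over mice, the make-up of the CD4 T-like class differed between the groups, and Bcl2 differed between its parts. The make-up was not tested with mice as replicates. A sub-cluster led by Tnfrsf4, Ccr4 and Foxp3, genes known from regulatory T cells, held 61 of 358 CD4 T-like cells of DOCA-salt hearts and 8 of 190 of sham hearts. It carried little Bcl2 in DOCA-salt cells, 151 CPM summed over mice. Its 8 sham cells held 5 Bcl2 UMIs (135 CPM summed over mice), too few for a level. In the sub-cluster led by Ly6c1 and Igfbp4 Bcl2 stood at 541 CPM in DOCA-salt and 338 CPM in sham cells, and in the third, led by Herc3 and St8sia6, at 750 and 546 CPM. With the Tnfrsf4 sub-cluster left out the log2 changes were 0.62 for Bcl2, 0.75 for Pim1, 0.90 for Pim2 and 0.71 for Myc, all larger than with it, and the number of genes called was 100 instead of 34.

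Memory-like CD8 T cells, marked by Ccl5 and Eomes, were few, with 8 to 55 cells per DOCA-salt mouse and 5 to 12 per sham mouse. Bcl2 measured 560, 549, 364 and 568 CPM in DOCA-salt mice and 368, 432, 351 and 523 CPM in sham mice, which overlapped, and the log2 change was 0.31 (SE 0.20). Pim1 changed by 0.06 (SE 0.37), with -0.09 without DOCA-salt mouse 3 and 0.47 without sham mouse 3, and Bax by 0.10 (SE 0.24) on the log2 scale. The other 7 members did not pass the filter here. Of 725 genes tested 0% were called by edgeR, 43 had an unadjusted p under 0.05, DESeq2 called 1, and 1.52% had every DOCA-salt mouse above every sham mouse.

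**Figure D3:**
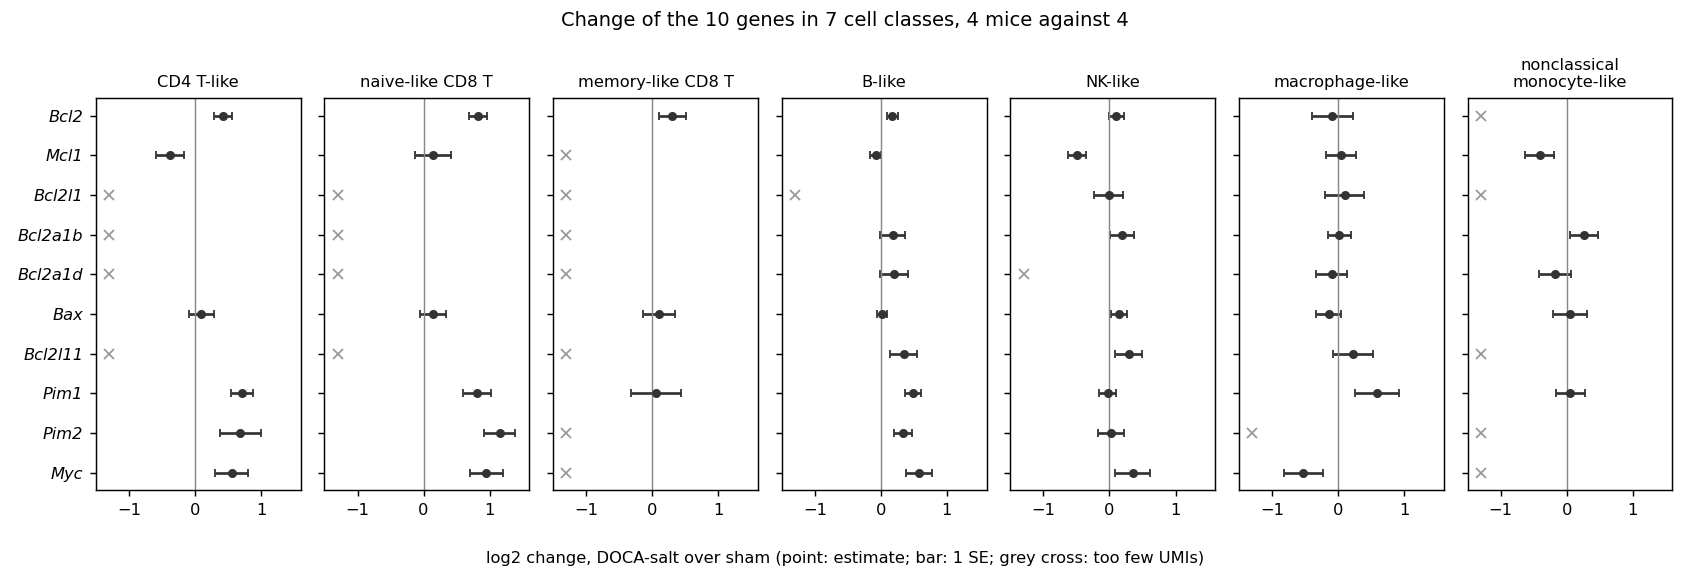
Log2 change of each member, DOCA-salt over sham, in 7 cell classes (panels), from edgeR with 4 mice per group; points are estimates, bars 1 SE, and a grey cross marks a gene with too few UMIs for an estimate. Bcl2, Pim1, Pim2 and Myc lie right of 0 in CD4 T-like and naive-like CD8 T cells, while Bax lies within 1 SE of 0 in most panels and Mcl1 lies left of 0 in NK-like cells.

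The changes were set side by side over the 3 T cell classes in a class by treatment interaction with the mouse as a block (edgeR quasi-likelihood F-test over 3068 genes). Of all genes 0.163% were called, namely Trbv12-2, Ccl5, Satb1, Ikzf2 and Itgb1, and 195 had an unadjusted p under 0.05. The members get no p here, because the same CPM per class and group chose them. The Bcl2 change in naive-like CD8 T cells exceeded that in CD4 T-like cells by 0.42 (SE 0.20) on the log2 scale. With T classes gated by UMIs the separate Bcl2 changes were 0.79 in naive-like CD8 T and 0.81 in CD4 T cells. In the clustered classes the Bcl2 change in memory-like CD8 T cells minus that in naive-like CD8 T cells was -0.48 (SE 0.24). For Pim2 the change in memory-like minus that in naive-like CD8 T cells was -1.38 (SE 0.49). Within memory-like CD8 T cells alone Pim2 did not pass the filter on low counts. It averaged 211 ± 204 CPM there in DOCA-salt and 216 ± 134 CPM in sham mice (SD, n = 4 each). The Myc change differed between naive-like CD8 T and CD4 T-like cells by 0.39 (SE 0.42), less than its own error.

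T cells, found by their RNA and outside the gamma-delta class, were also cut by surface antibodies, a choice made after the data had been seen. This split used no RNA of the members. T sub-clusters left without a class name could enter the gates, among them 120 cells led by the macrophage gene C1qa. Their part in the gate differences was not tested. CD44 served as a surface mark of memory, and a cell counted as CD44high with at least 1000 UMIs of the CD44 antibody. Whether the cells had met antigen was not measured. Ccl5, a marker of the memory-like class, averaged 7637 CPM in CD44high and 1571 CPM in CD44low CD8 cells. In CD4-gated cells of DOCA-salt mice 1 to 4 Bcl2 was 338, 285, 434 and 343 CPM in the CD44high gate and 794, 529, 623 and 504 CPM in the CD44low gate. In sham mice 1 to 4 it was 217, 178, 169 and 244 CPM in CD44high cells and 404, 363, 279 and 467 CPM in CD44low cells. Bcl2 was lower in CD44high cells in 8 of 8 mice, and the log2 difference of CD44high against CD44low was -0.98 (SE 0.11, adjusted p = 1.37e-06 by edgeR with the mouse as a block), where 17.9% of 1848 genes were called.

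The lower Bcl2 of CD44high CD4 cells was as large in DOCA-salt mice alone, with a log2 difference of -0.97, as in sham mice alone, with -0.99. It was -0.66 with the split at 500 UMIs and -0.67 without the Tnfrsf4 sub-cluster, still past the threshold in both. Within each CD4 gate every DOCA-salt mouse stood above every sham mouse for Bcl2, and likewise in CD44low CD8 cells (444 to 608 CPM in DOCA-salt mice, 253 to 376 CPM in sham mice). In CD44high CD8 cells, with 359 to 521 CPM in DOCA-salt and 312 to 415 CPM in sham mice, the groups overlapped. Nothing is read from these group differences, since this contrast chose the members. The share of all genes without overlap was not counted in the gates.

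**Figure D4:**
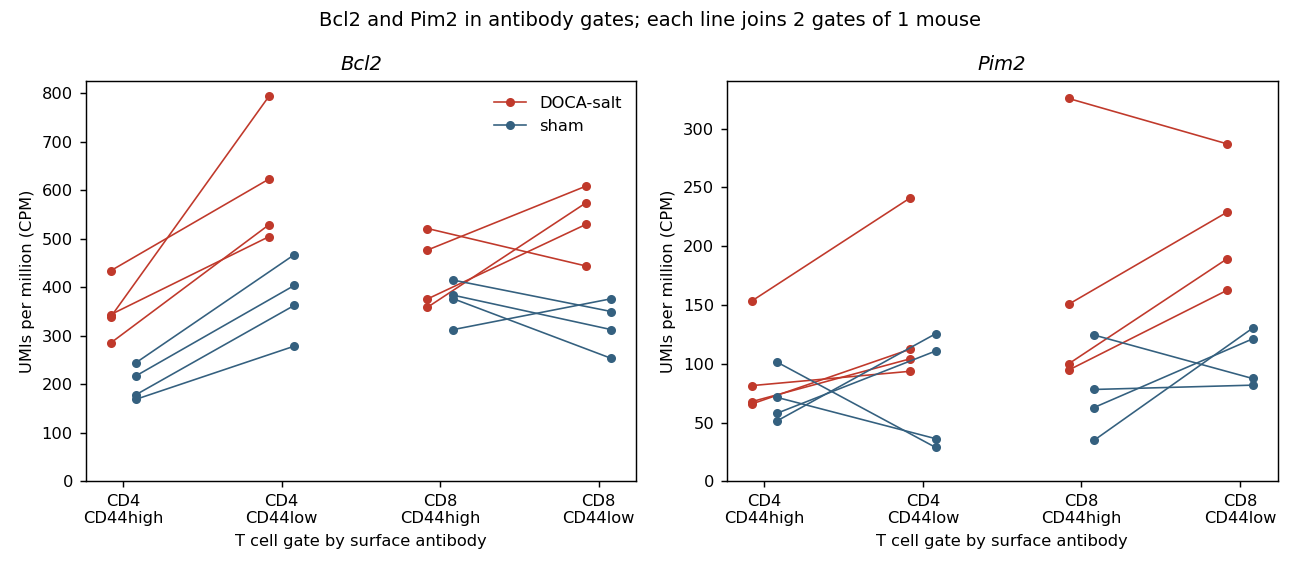
CPM of Bcl2 (left) and Pim2 (right) in T cells gated by CD4, CD8a and CD44 antibodies; each line joins the CD44high and CD44low cells of 1 mouse, DOCA-salt in red and sham in blue. Bcl2 is lower in CD44high than in CD44low CD4 cells in all 8 mice, and shows no shared direction in CD8 cells.

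Pim2 was lower in CD44high than in CD44low CD4 cells (log2 difference -0.67, SE 0.21, adjusted p = 0.0268 by edgeR). It was also lower in CD44high than in CD44low CD8 cells (-0.58, SE 0.17), where 16.6% of 1851 genes were called. Pim2 was lower in 6 of 8 mice among CD4 and among CD8 cells. The split of CD8 cells resembles that into naive-like and memory-like classes, whose CPM chose the members, so members get no p there. Among CD4 cells the difference was -0.33 without the Tnfrsf4 sub-cluster and no longer passed, nor did it without DOCA-salt mouse 1 (-0.59), 3 (-0.66) or 4 (-0.65) or sham mouse 4 (-0.60). Among CD8 cells the Pim2 difference was -0.45 without DOCA-salt mouse 1, -0.50 without 2 and -0.53 without 4. Bcl2 in CD44high against CD44low CD8 cells had a log2 difference of -0.26 (SE 0.13).

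Between the CD44low gates, Pim2 was higher in CD8 than in CD4 cells, with means of 161 ± 71.2 and 107 ± 65.1 CPM (SD, n = 8 mice). The log2 difference was 0.68 (SE 0.18), with a higher value in 6 of 8 mice. Myc was 0.55 higher (SE 0.17), at 116 ± 45.9 CPM in CD8 and 80.0 ± 35.8 CPM in CD4 cells, also in 6 of 8 mice. In that contrast 15.4% of 1868 genes were called. Members again get no p, since their CPM in the CD4 and CD8 classes chose them. The Pim2 difference was 0.54 without DOCA-salt mouse 4. The Myc difference was 0.48 without DOCA-salt mouse 2, 0.50 without 3, 0.54 without 4 and 0.48 without sham mouse 2.

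The second comparison concerns the other leukocytes. In B-like cells Pim1 measured 141, 129, 192 and 119 CPM in DOCA-salt mice, against 107, 98.1, 105 and 97.9 CPM in sham mice. The groups did not overlap and the log2 change was 0.49 (SE 0.12). Bcl2 was also apart, at 123, 120.2, 120.0 and 137 CPM in DOCA-salt mice and 117, 116, 101 and 111 CPM in sham mice, but its log2 change was only 0.18 (SE 0.09). It was -0.03 when the 5 B-like clusters were weighted equally, the smallest of which had 40 cells and 6 sham Bcl2 UMIs. From the largest to the smallest cluster Bcl2 was 128, 118.5, 123, 139 and 143 CPM in DOCA-salt cells, summed over mice. In sham cells it was 109, 104, 112, 147 and 136 CPM. Myc averaged 104 ± 34.0 CPM in DOCA-salt and 65.1 ± 17.3 CPM in sham mice (SD, n = 4 each), with overlap and a log2 change of 0.58 (SE 0.20).

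The other members of B-like cells overlapped between the groups. Pim2 changed by 0.33 (SE 0.14) and Bcl2l11 by 0.35 (SE 0.20) on the log2 scale, Bax by 0.02 (SE 0.08) and Mcl1 by -0.07 (SE 0.08). Of 8551 genes 1.53% were called, 32 higher and 99 lower, and 3.37% had every DOCA-salt mouse above every sham mouse, Bcl2 and Pim1 among these. In sham mouse 2 the haemoglobin genes reached 11345 CPM of the B-like sum, against 45.5 to 57.8 CPM in the other sham mice and 1.20 to 25.0 CPM in DOCA-salt mice. Without that mouse 69 genes were called in place of 131.

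In NK-like cells, cytotoxic lymphocytes that depend on IL-15 and MCL1, Mcl1 measured 95.3, 85.7, 94.9 and 77.1 CPM in DOCA-salt mice and 124, 137, 93.5 and 110 CPM in sham mice. Sham mouse 3 was the only one inside the DOCA-salt range, and the log2 change was -0.50 (SE 0.14). Pim1, at 339 ± 54.5 CPM in DOCA-salt and 341 ± 80.3 CPM in sham mice, and Pim2, at 106 ± 37.9 and 93.4 ± 25.7 CPM, had overlapping mice and log2 changes of -0.02 (SE 0.13) and 0.02 (SE 0.19). Bcl2 changed by 0.10 (SE 0.11) on the log2 scale. Of 6525 genes 0.996% were called and 3.92% had every DOCA-salt mouse above every sham mouse, and no member was among the genes without overlap.

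Of the myeloid classes, 2 had enough cells for estimates, with 9 members in macrophage-like and 5 in nonclassical monocyte-like cells. In macrophage-like cells Pim1 changed by 0.59 (SE 0.33) and Myc by -0.53 (SE 0.29) on the log2 scale, both with overlapping mice, and the other 7 members that passed the filter changed by -0.14 to 0.23. Of 4422 genes 0.317% were called and 3.48% had every DOCA-salt mouse above every sham mouse, and no member was among the genes without overlap. In nonclassical monocyte-like cells Mcl1 averaged 260 ± 84.4 CPM in DOCA-salt and 349 ± 39.6 CPM in sham mice (SD, n = 4 each), a log2 change of -0.41 (SE 0.22), and Bcl2a1b changed by 0.26 (SE 0.21) and Bcl2a1d by -0.18 (SE 0.24). These last 2 depended on the cells kept: with a stricter filter on cells they were -0.74 and -1.11. Of 1696 genes 1.83% were called and 3.12% had every DOCA-salt mouse above every sham mouse, again with no tested member without overlap.

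The other genes of these pathways were tested in the whole-table fits. Of the cytokine signalling list (29 genes, 14 tested in CD4 T-like cells), 1 was higher in CD4 T-like cells and none lower, where 1.13% of all genes were called in either direction: Socs3, an inhibitor of JAK signalling that STAT3 induces, averaged 135 CPM in DOCA-salt and 64.1 CPM in sham mice without overlap, and the log2 change was 1.10 (SE 0.25, adjusted p = 0.0191 by edgeR). In naive-like CD8 T cells Socs3 averaged 93.2 and 37.6 CPM in DOCA-salt and sham mice and did not pass (edgeR: adjusted p = 0.109, log2 change 1.36, SE 0.39). The receptor gene Il7r did not pass in memory-like CD8 T cells, with 635 CPM in DOCA-salt and 776 CPM in sham mice. No gene of this list passed in the other 6 classes.

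Of 16 regulators of BIM, MCL1 and BAX, Akt1, a survival kinase, was the 1 called of 16 tested in NK-like cells (0.996% of all genes) and was lower, at 48.5 CPM in DOCA-salt and 76.7 CPM in sham mice (edgeR: adjusted p = 0.00597, log2 change -0.74, SE 0.15). Nfkbia, the inhibitor of NF-kappaB, was the 1 called of 8 tested in nonclassical monocyte-like cells (1.83% of all genes) and was lower, at 493 and 861 CPM in DOCA-salt and sham mice (-0.76, SE 0.18, adjusted p = 0.0194 by edgeR). No other gene of this list passed in any of the 7 classes. The same holds for every tested member of the lists of other BCL2 family genes, caspases and death receptors, caspase inhibitors and MYC partner factors, of which 9 BH3-only and effector genes and 19 caspase and death receptor genes could be tested in B-like cells. Among them Cycs, cytochrome c, averaged 157 CPM in DOCA-salt and 124 CPM in sham CD4 T-like cells (adjusted p = 0.470 by edgeR).

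Genes of growth that MYC is known to drive, such as those of ribosome assembly, had mostly positive log2 changes, and none of them passed the test. In B-like cells 30 of 31 tested had a positive log2 change, with a median of 0.19 against 0.003 for all genes; in naive-like CD8 T cells it was 22 of 25, with a median of 0.16 against 0.02, and in CD4 T-like cells 16 of 19, with a median of 0.28 against 0.02. The numbers were 22 of 27 in NK-like and 11 of 20 in macrophage-like cells, with medians of 0.11 and 0.04 against -0.001 and 0.004 for all genes. Hspe1, a mitochondrial chaperone gene, averaged 471 CPM in DOCA-salt and 330 CPM in sham B-like cells (edgeR: adjusted p = 0.248, log2 change 0.53, SE 0.20), and Nop58, a nucleolar protein gene, 108 and 71.2 CPM in naive-like CD8 T cells of DOCA-salt and sham mice (adjusted p = 0.302 by edgeR). The genes of a list are not independent of one another, and the lists were chosen with earlier results of these data known. The share of all tested genes with a positive log2 change was not counted.

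**Figure D5:**
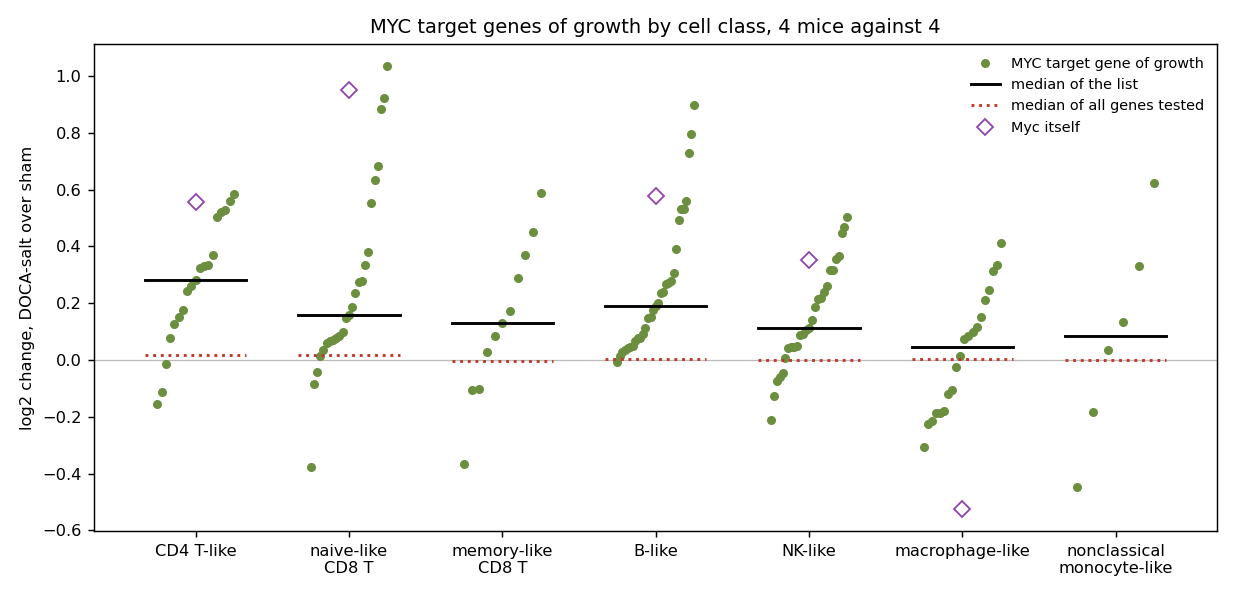
Log2 change, DOCA-salt over sham, of each tested gene of the list of MYC target genes of growth (green) in 7 cell classes, with the median of the list (black line), the median of all genes tested (red dotted line) and Myc itself (open diamond). The list's median is 0.28 in CD4 T-like, 0.16 in naive-like CD8 T and 0.19 in B-like cells, and no single gene of it passed the test.

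Several other signals moved with the group and are given beside the T cell results. The median UMIs per cell were 5071 in DOCA-salt and 3368.5 in sham CD4 T-like cells, 6170.5 and 5017 in naive-like CD8 T cells, and 5422 and 5775 in memory-like CD8 T cells. The sum of 23 early response genes, which tissue digestion induces, was 9292 to 10658 CPM (mean 10224) in CD4 T-like cells of DOCA-salt mice. In those of sham mice it was 10632 to 12379 CPM (mean 11905). Btg1, an anti-growth gene of resting lymphocytes, is 1 of the 23. It averaged 1215 CPM in DOCA-salt and 2344 CPM in sham CD4 T-like cells, so it made up much of the difference in that sum. Of 18 genes of the list tested there, Btg1 alone was called, and 6 had a positive log2 change. Btg1 was lower in CD4 T-like, naive-like CD8 T, B-like, NK-like and nonclassical monocyte-like cells (log2 changes -0.91, -0.77, -0.66, -0.50 and -0.89, each past the threshold by edgeR). RNA of cells that T cells are not also differed, with haemoglobin genes at 0 to 1.99 CPM in CD4 T-like cells of DOCA-salt and 28.9 to 66.5 CPM in those of sham mice, and the sum of 7 neutrophil markers at 25.5 to 43.9 CPM in DOCA-salt and 0 to 14.4 CPM in sham mice, where 5 of the 7, S100a9 among them, were at 0. The 10 macrophage markers summed to 143 to 247 CPM in CD4 T-like cells of DOCA-salt and 157 to 276 CPM in those of sham mice, far under the 21397 to 27253 CPM of DOCA-salt and 23050 to 29263 CPM of sham macrophage-like cells. Without cells holding a UMI of the macrophage genes C1qa, C1qb or C1qc the log2 change of Bcl2 was 0.35 in CD4 T-like and 0.74 in naive-like CD8 T cells. The part of depth, early response genes and foreign RNA in the member differences was not tested.

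Mouse 3 of each group gave the fewest CD4 T-like cells, 54 in the DOCA-salt and 34 in the sham mouse. Pim1 was highest in DOCA-salt mouse 3 in 5 of 7 classes among DOCA-salt mice and in sham mouse 3 in 4 of 7 among sham mice, and Pim2 was highest in DOCA-salt mouse 3 in 4 of 4 classes and in sham mouse 3 in 2 of 4. In CD4 T-like cells sham mouse 3 was the lowest sham mouse for both, at 143 CPM for Pim1 and 28.5 CPM for Pim2. Bax by comparison was highest in DOCA-salt mouse 1 in 6 of 7 classes. Without DOCA-salt mouse 3 the Pim1 change was 0.63 in CD4 T-like and 0.74 in naive-like CD8 T cells, and that of Pim2 was 1.01 in naive-like CD8 T cells.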

How the data were processed

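Cells were counted by Cell Ranger, whose version 3.1.0 stands in the matrix headers, on mm10, and Seurat 4 is also named, per the submitters' processing notes; strand settings are not given in the sources used here. The deposited values are raw UMI counts for 31053 genes and 20 antibody features per barcode. The members and gene lists were chosen with earlier results of these data known, and the antibody gates after seeing the data. Cells under 200 genes or over 10% mitochondrial UMIs were dropped. Scrublet doublets were removed (243, 3.31%, in the DOCA-salt and 53, 1.25%, in the sham library), as were cells whose first hashtag was under 2 times the second (321 in the DOCA-salt and 136 in the sham library). Clustering used scanpy 1.11.5 with 2000 variable genes without the members, 30 components and Leiden resolution 1.0. A class name needed 3 markers.

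Counts were summed per mouse and class. Tests used edgeR 4.0.16 (quasi-likelihood, TMM scaling, filterByExpr, Benjamini-Hochberg over all genes of a fit, threshold 0.05) in R 4.3.3, with DESeq2 1.42.0 as an alternative. Classes other than the 3 T cell classes needed at least 10 cells in at least 3 mice per group. The 3 T cell classes were fitted without that minimum, and memory-like CD8 T cells had 5, 9, 6 and 12 cells in sham mice 1 to 4. The mouse was a block in the interaction and antibody-gate fits. Antibody gates took T cells outside the gamma-delta class with at least 100 UMIs of the CD4 or CD8a antibody and at least 5 times the other. Floors rest on 3 counts and cover counting error only. Named pathway genes were up to 4 per list and class past the threshold or, where none passed, up to 2 with the largest change and at least 50 CPM; likeness used Pearson's r of log2(CPM + 1) class means. Scripts were checked on simulated data.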

Additional observations from a re-analysis of the deposited data

Results flagged for a closer look

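Among 94 groups of 4 mice checked for a mouse far from the others (Dixon's test), 6 held one, and chance alone flags about 1 in 20. In naive-like CD8 T cells it was sham mouse 3 for both Pim kinases, with 369 CPM for Pim1 against 104 to 136 CPM in the other sham mice and 184 CPM for Pim2 against 89.2 to 94.9 CPM. That mouse had 11 such cells. Pim1 in NK-like cells was 419 CPM in DOCA-salt mouse 3 against 306 to 324 CPM in the other DOCA-salt mice. Bcl2 in memory-like CD8 T cells was 364 CPM in DOCA-salt mouse 3, which had 8 such cells, against 549 to 568 CPM. Mcl1 in nonclassical monocyte-like cells was 408 CPM in sham mouse 1 against 323 to 336 CPM. Bcl2l1 in macrophage-like cells was 52.4 CPM in sham mouse 4 against 43.8 to 45.1 CPM. The part of cell number in these values was not tested.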

How the results depend on the processing

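Of 817 recomputed member changes 800 moved by less than the spread between mice, and 64 had the opposite sign, 57 of them within that spread. Beyond it, with sub-clusters weighted equally in B-like cells Bcl2 was -0.025, Bcl2a1b -0.23 and Bcl2a1d -0.77, where Pim2 was 0.72. The smallest of these clusters, with 40 cells, held 0 Bcl2a1d and 6 Pim2 UMIs in DOCA-salt cells and 2 and 0 in sham cells. Bcl2a1b in nonclassical monocyte-like cells was -0.74 with a stricter cell filter and -0.69 at Leiden resolution 0.5, Bcl2a1d in macrophage-like cells 0.22 with that filter, and Bax in CD4 T-like cells -0.17 without the Tnfrsf4 sub-cluster. Bcl2 in CD4 T-like cells was 0.81 with classes gated by UMIs, and Myc 0.91 without cells holding C1q UMIs. Counts of genes called moved more. In CD4 T-like cells 34 became 89 with no filter on low counts, 22 by DESeq2, 22 with a stricter cell filter, 53 at Leiden resolution 0.5, 8 gated by UMIs, 17 without C1q cells, 100 without the Tnfrsf4 sub-cluster, and 11 (without sham mouse 2) to 61 (without DOCA-salt mouse 4) leaving out 1 mouse. In naive-like CD8 T cells 23 became 46 with no filter, 2 without C1q cells, 9 gated by antibodies and 7 to 35 leaving out 1 mouse. In memory-like CD8 T cells 0 became 30 with no filter, 1 by DESeq2, 3 gated by UMIs, 9 by antibodies and 0 to 2 leaving out 1 mouse. In B-like cells 131 became 258 with no filter, 84 with doublets kept, 81 with the stricter cell filter, 85 with members kept for clustering, 52 without C1q cells and 67 to 113 leaving out 1 mouse. In NK-like cells 65 became 127 with no filter, 41 by DESeq2, 39 without C1q cells and 30 to 71 leaving out 1 mouse. In macrophage-like cells 14 became 158 with no filter, 194 with the stricter cell filter and 3 to 20 leaving out 1 mouse. In nonclassical monocyte-like cells 31 became 228 with the stricter cell filter, 203 at resolution 0.5 and 15 to 39 leaving out 1 mouse. The 5 interaction calls became 36 with no filter, 0 with hashtag margin 5, with members kept, gated by UMIs, without C1q cells or gated by antibodies, 1 without the Tnfrsf4 sub-cluster and 2 to 7 leaving out 1 mouse. Among antibody gates, Pim2 of CD8 CD44low against CD4 CD44low was 0.35 in sham mice alone and Myc 0.54 in DOCA-salt mice alone. Leaving out 1 mouse gave 0.54 to 0.80 for that Pim2 and 0.48 to 0.67 for that Myc difference. Pim2 of CD44high against CD44low was -0.76 to -0.45 in CD8 cells and -0.75 to -0.59 in CD4 cells, where it was -0.33 without the Tnfrsf4 sub-cluster. The causes were not tested. No memory-like CD8 T class, and so no interaction value, was found at Leiden resolution 0.5, with doublets kept or with the stricter cell filter. No paired analysis was possible because a hashtag number names a mouse inside its own library and ties no DOCA-salt mouse to a sham one. In memory-like CD8 T cells, with 124 DOCA-salt and 32 sham cells, 3 of the 10 members passed the filter on low counts.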

Other observations

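Migratory dendritic-like cells, marked by Ccr7 and Fscn1, numbered 14 in DOCA-salt and 0 in sham hearts, and none of their member levels enters a comparison.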
